A study of Mus musculus with 41 samples.

Results

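The genes described are those of the proteasome, taken as every gene of the authors' tables whose symbol is Psm, a letter from a to g and a number, with a mean normalised count of at least 10. This rule gave 48 genes of the 55453 listed. Of 49 symbols that match, the lowest mean inside the limit was 31.1 for Psma8, a testis-type subunit, and 0.018 for Psmb11, the thymus-specific subunit, was the only one outside it. The 48 were split into 5 immunoproteasome genes (Psmb8, Psmb9, Psmb10, Psme1 and Psme2) and 43 others, called constitutive here.

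The proteasome degrades proteins tagged with ubiquitin. Its 20S core is a barrel of alpha and beta rings, and the beta subunits encoded by Psmb5, Psmb6 and Psmb7 cut the chain. A 19S particle with ATPase (Psmc) and non-ATPase (Psmd) subunits recognises, unfolds and feeds in the substrate. Interferons induce Psmb8, Psmb9 and Psmb10, which replace Psmb5, Psmb6 and Psmb7 in new particles, and the PA28 activator genes Psme1 and Psme2. Such immunoproteasomes are abundant in leukocytes and are known for making peptides for MHC class I presentation.

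RNA came from orthotopic rectal tumours of MC38-luc cells, a mouse colon cancer line with a luciferase gene, in female C57BL6 mice. Irradiated tumours were given 5 fractions of 5 Gy, from day 9 to day 13 after implantation, untreated tumours received none, and all were harvested on day 14. CD45+ CD11b+ cells were sorted into tumour-associated macrophages (TAM; Ly6C- Ly6G- F4/80+), inflammatory monocytes (Ly6C+ Ly6G-) and granulocytes (Ly6C+ Ly6G+), and 41 libraries were made. There were 10 irradiated and 5 untreated TAM libraries, 9 irradiated and 5 untreated inflammatory monocyte libraries, and 7 irradiated and 5 untreated granulocyte libraries, each from a tumour of its own within a subset. The age of the mice is not given in the sources used here, and all tumours came from 1 cell line.

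The values are those of the authors' deposited tables, irradiated against untreated within each subset. Single-library values were not analysed here, so neither read depth nor spread within a group can be given, and the Wald statistic (effect divided by its standard error) stands for the error. Log2 fold changes were read as shrunken towards 0 and are positive where irradiated is higher. A gene rose or fell where the authors' adjusted p was under 0.05, with the direction of the Wald statistic, which had the sign of the fold for all 48 genes in all 3 tables. The mean normalised count is 1 value over all libraries, so the sorted identities cannot be checked here against marker levels per subset. In bulk RNA, fewer cells of a type and less RNA per cell cannot be told apart.

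Promoter windows are shown for genes on which the comparison turns: 4 of the 5 immunoproteasome genes (Psme2 has windows as well, not shown), 2 of the constitutive catalytic genes they replace, and the assembly gene with the lowest Wald statistic in TAM. Each runs from 250 bases before to 50 after the gene's start in RefSeq (GRCm38.p6), 5′ to 3′ on the gene's strand. Capitals mark matches, on either strand, to a gamma-activated site (TTCNNNGAA), an interferon-stimulated response element core (GAAA, any 2 bases, GAAA), an antioxidant response element core (TGACNNNGC) or a nuclear respiratory factor 1 motif (GCGCA, any base, GCGC).
Psmb8 (chr17:34197945-34198244, plus strand): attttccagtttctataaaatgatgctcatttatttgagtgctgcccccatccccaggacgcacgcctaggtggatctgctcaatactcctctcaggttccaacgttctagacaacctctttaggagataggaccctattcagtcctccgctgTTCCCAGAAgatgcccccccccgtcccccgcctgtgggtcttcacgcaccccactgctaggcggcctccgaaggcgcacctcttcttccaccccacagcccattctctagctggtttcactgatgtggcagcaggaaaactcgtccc
Psmb9 (chr17:34187281-34187580, minus strand): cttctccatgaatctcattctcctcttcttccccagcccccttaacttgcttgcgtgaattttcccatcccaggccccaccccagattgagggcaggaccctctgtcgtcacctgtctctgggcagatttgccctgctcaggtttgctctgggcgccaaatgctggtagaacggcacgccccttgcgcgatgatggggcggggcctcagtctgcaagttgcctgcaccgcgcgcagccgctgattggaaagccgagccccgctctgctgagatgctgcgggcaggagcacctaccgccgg
Psmb10 (chr8:105938343-105938642, minus strand): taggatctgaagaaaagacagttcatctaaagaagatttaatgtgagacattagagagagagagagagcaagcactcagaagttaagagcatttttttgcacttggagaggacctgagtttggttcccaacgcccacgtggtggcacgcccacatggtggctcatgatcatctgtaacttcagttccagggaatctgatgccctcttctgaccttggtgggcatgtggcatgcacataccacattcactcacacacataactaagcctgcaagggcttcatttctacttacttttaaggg
Psmb5 (chr14:54617946-54618245, minus strand): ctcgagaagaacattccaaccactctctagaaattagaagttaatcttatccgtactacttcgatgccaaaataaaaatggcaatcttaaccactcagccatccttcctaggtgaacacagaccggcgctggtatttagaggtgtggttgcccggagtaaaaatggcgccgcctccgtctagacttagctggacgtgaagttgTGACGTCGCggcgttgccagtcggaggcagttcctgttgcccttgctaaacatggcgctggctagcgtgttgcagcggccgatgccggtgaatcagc
Psmb6 (chr11:70525107-70525406, plus strand): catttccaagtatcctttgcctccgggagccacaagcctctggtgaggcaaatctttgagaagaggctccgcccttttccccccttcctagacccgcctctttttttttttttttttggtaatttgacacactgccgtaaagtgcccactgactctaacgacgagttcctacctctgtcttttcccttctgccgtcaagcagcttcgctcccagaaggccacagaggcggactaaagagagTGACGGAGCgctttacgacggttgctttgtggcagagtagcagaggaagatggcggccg
Psme1 (chr14:55578244-55578543, plus strand): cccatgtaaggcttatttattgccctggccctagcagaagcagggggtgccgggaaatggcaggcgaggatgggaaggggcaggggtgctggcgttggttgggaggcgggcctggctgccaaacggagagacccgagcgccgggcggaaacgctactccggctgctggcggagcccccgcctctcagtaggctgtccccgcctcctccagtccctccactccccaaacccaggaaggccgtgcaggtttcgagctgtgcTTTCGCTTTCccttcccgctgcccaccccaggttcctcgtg
Psmg1 (chr16:95990911-95991210, minus strand): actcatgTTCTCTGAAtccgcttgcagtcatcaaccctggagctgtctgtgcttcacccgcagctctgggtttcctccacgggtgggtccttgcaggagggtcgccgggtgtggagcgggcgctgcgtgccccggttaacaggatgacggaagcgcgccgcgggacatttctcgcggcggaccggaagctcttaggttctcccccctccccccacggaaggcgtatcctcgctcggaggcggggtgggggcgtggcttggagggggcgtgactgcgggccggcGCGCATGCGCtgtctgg

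Of the 48 genes, 40 had a RefSeq window. The interferon-stimulated core was in windows of 5 of these (12.5%), against 3.99% of all 27025 genes with a window: Psme1, Psmb3, Psmd4, Psmd9 and Psmg4. A gamma-activated site was in 3 (7.5%, against 9.55% of all genes), namely Psmb8, Psmd2 and Psmg1. The nuclear respiratory factor 1 motif was in 7 (17.5%, against 5.19%), which were Psma2, Psma3, Psma4, Psmc4, Psmc5, Psmd14 and Psmg1, and in none of the immunoproteasome genes. The antioxidant core was in 6 (15%, against 14%), Psmb5 and Psmb6 among them. The match lies 97 to 89 bases before the start in Psmb8, 47 to 39 in Psmb5 and 9 to 1 in Psmb6, while in Psme1 it is on the reverse strand, after the start. The motifs can overlap each other, a match is a description of letters and not a binding site, and windows differ with the annotated start. A CCAAT box (CCAAT, not in capitals) was in 13 (32.5%, against 41.1%), Psmb9 the only immunoproteasome gene among them. GENCODE M21 places the start of the principal transcript 405 bases from the RefSeq start for Psmb8, 434 for Psmb9, 134 for Psme1, and 0 to 52 for the other 4 genes shown.

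Over all libraries, the immunoproteasome genes stood high among proteasome genes in mean normalised count per kb of exon, a level. Psmb8 had 5811 per kb against 1667 for Psmb5, and Psmb10 had 4773 against 860 for Psmb7. The third pair ran the other way, with 4298 per kb for Psmb9 against 5351 for Psmb6. Psme2 had the highest level, 9798 per kb, and Psme1 had 5280. Constitutive genes had a median of 1401 per kb and ranged between 18.4 (Psma8) and 5351 (Psmb6). By role, medians of the level were 1945 per kb for alpha subunits, 1750 for 19S ATPases, 1401 for 19S non-ATPase subunits and 263 for assembly chaperones. These means pool both treatments and all 3 subsets, and exon lengths came from GENCODE M21.

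In TAM, genes of every part of the constitutive particle fell after irradiation and the immunoproteasome genes did not pass the test. Of the 48 genes, 26 fell and 1 rose (54.2% and 2.08%). Over all 16851 genes tested, 12.5% fell and 13.9% rose, and among the 8208 with a mean count of 200 or more, the range that holds 47 of the 48 genes, 17.1% fell and 21.6% rose. The Wald statistic was negative for 40 of the 48. Their median log2 fold change was -0.29, against 0.03 for all genes tested. Most changes were small, since only Psmg1 and Psmg2 passed the test with a log2 fold change of 0.5 or more in size.

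**Figure D1:**
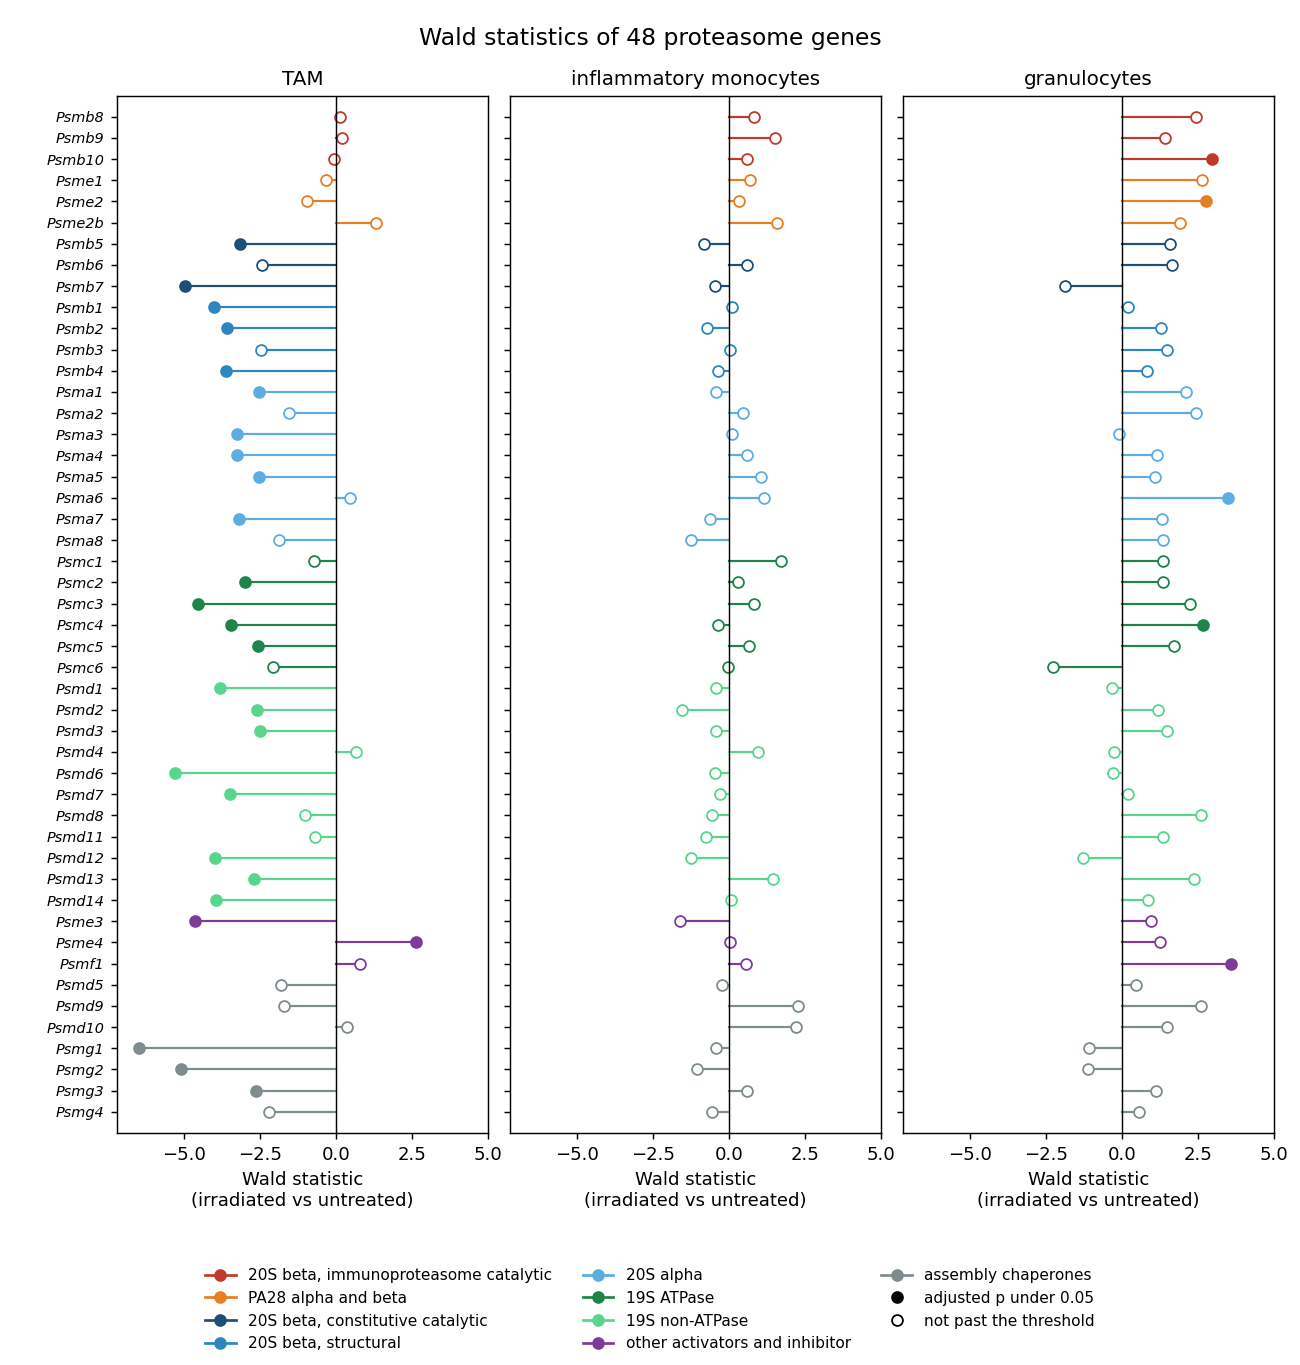
Wald statistics (horizontal axis, no unit) of the 48 proteasome genes (vertical axis, grouped by role) for irradiated against untreated TAM, inflammatory monocytes and granulocytes; filled points have an adjusted p under 0.05. In TAM 26 filled points lie left of 0, in inflammatory monocytes none is filled, and in granulocytes 5 lie right of 0.

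Of the 7 assembly chaperone genes, 3 fell in TAM, with the lowest Wald statistic of the 48 among them. Psmg1, which encodes a chaperone that helps to form the alpha ring, had a log2 fold change of -0.85, a fold of 0.55, per the authors' deposited table (Wald statistic -6.49, adjusted p = 6.0e-09). Its partner Psmg2 fell with a log2 fold change of -0.81 per the authors' deposited table (Wald statistic -5.08, adjusted p = 8.6e-06). Psmg3, of a second pair of alpha-ring chaperones, fell as well (-0.48, adjusted p = 0.036), while its partner Psmg4 did not pass (-0.42, adjusted p = 0.09, both per the authors' deposited table). The chaperones of the 19S base, Psmd5, Psmd9 and Psmd10, did not pass, with log2 fold changes of -0.24, -0.18 and 0.04 per the authors' deposited table. Of 5 listed genes for subunits and maturation factors whose symbols lie outside the naming rule, 1 fell in TAM. That 20% was close to the 17.1% of genes with a mean count of 200 or more. It was Pomp, the maturation factor of the 20S core, per the authors' deposited table (log2 fold change -0.47, adjusted p = 0.0034). Adrm1 (-0.07), Sem1 (-0.08), Akirin2 (-0.11) and Ecpas (0.04) did not pass per the authors' deposited table.

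Among 20S core genes outside the immunoproteasome, 10 of 15 fell in TAM. Psmb7, the trypsin-like catalytic subunit, fell with a log2 fold change of -0.41 per the authors' deposited table (Wald statistic -4.95, adjusted p = 1.5e-05). Psmb5, the chymotrypsin-like one, fell with -0.34 (adjusted p = 0.0094) per the authors' deposited table. Psmb6, the caspase-like one, had -0.32 and just missed the threshold (adjusted p = 0.057, the authors' deposited table). All 3 therefore had a fold of 0.75 to 0.80. Of the structural beta genes, Psmb1 (-0.38), Psmb2 (-0.41) and Psmb4 (-0.33) fell and Psmb3 had -0.29 with 0.051 as its adjusted p per the authors' deposited table. Of the 8 alpha genes, 5 fell: Psma1, Psma3, Psma4, Psma5 and Psma7, with log2 fold changes between -0.40 and -0.21 per the authors' deposited table. The alpha genes Psma2 (-0.14), Psma6 (0.07) and Psma8 (-0.63, at a mean count of 31.1) did not pass per the authors' deposited table.

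In the 19S particle, 12 of 17 genes fell in TAM and none rose. Psmd6, a lid subunit, led with a log2 fold change of -0.45 per the authors' deposited table (Wald statistic -5.28, adjusted p = 3.4e-06). Psmc3, one of the ATPases that unfold the substrate, followed with -0.39 (Wald statistic -4.53, adjusted p = 8.8e-05) per the authors' deposited table. Psmd12 (-0.41, adjusted p = 7.6e-04), Psmd14, whose product removes ubiquitin chains at the pore (-0.45, adjusted p = 7.9e-04), and the scaffold gene Psmd1 (-0.36, adjusted p = 0.0012) were next per the authors' deposited table. Psmc2, Psmc4, Psmc5, Psmd2, Psmd3, Psmd7 and Psmd13 fell by less, with log2 fold changes between -0.32 and -0.24 per the authors' deposited table. The 5 that did not pass were Psmc1, Psmc6, Psmd4, which encodes a ubiquitin receptor, Psmd8 and Psmd11, with log2 fold changes between -0.25 and 0.07 per the authors' deposited table.

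Of the other activators, 1 fell and 1 rose in TAM. Psme3, which encodes the nuclear activator PA28 gamma, fell with a log2 fold change of -0.35 per the authors' deposited table (Wald statistic -4.65, adjusted p = 5.5e-05). Psme4, which encodes the activator PA200, was the 1 gene of the 48 that rose, with 0.34 (Wald statistic 2.63, adjusted p = 0.036) per the authors' deposited table. Psmf1, which encodes the proteasome-binding inhibitor PI31, had 0.14 and did not pass per the authors' deposited table (adjusted p = 0.61).

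None of the 5 immunoproteasome genes passed in TAM, and their log2 fold changes were near 0. The authors' deposited table gives 0.03 for Psmb8 (adjusted p = 0.94), 0.04 for Psmb9 (adjusted p = 0.92) and -0.01 for Psmb10 (adjusted p = 0.98). The PA28 genes had -0.05 for Psme1 (adjusted p = 0.85) and -0.16 for Psme2 (adjusted p = 0.53) per the authors' deposited table. The median log2 fold change was -0.01 for the immunoproteasome genes and -0.32 for the constitutive ones, a difference of 0.31. Of the 43 constitutive genes, 33 lay below every immunoproteasome gene and 6 above every one. A test of that difference could not be run without library values, and a p that misses the threshold does not show that a gene was unaltered. Genes also differed in error, so calls can differ at like folds. Psme2 had a Wald statistic of -0.96 at -0.16, against -1.55 at -0.14 for Psma2, per the authors' deposited table. The error varied among constitutive genes too, with a Wald statistic of 0.81 at 0.14 for Psmf1 per the authors' deposited table.

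**Figure D2:**
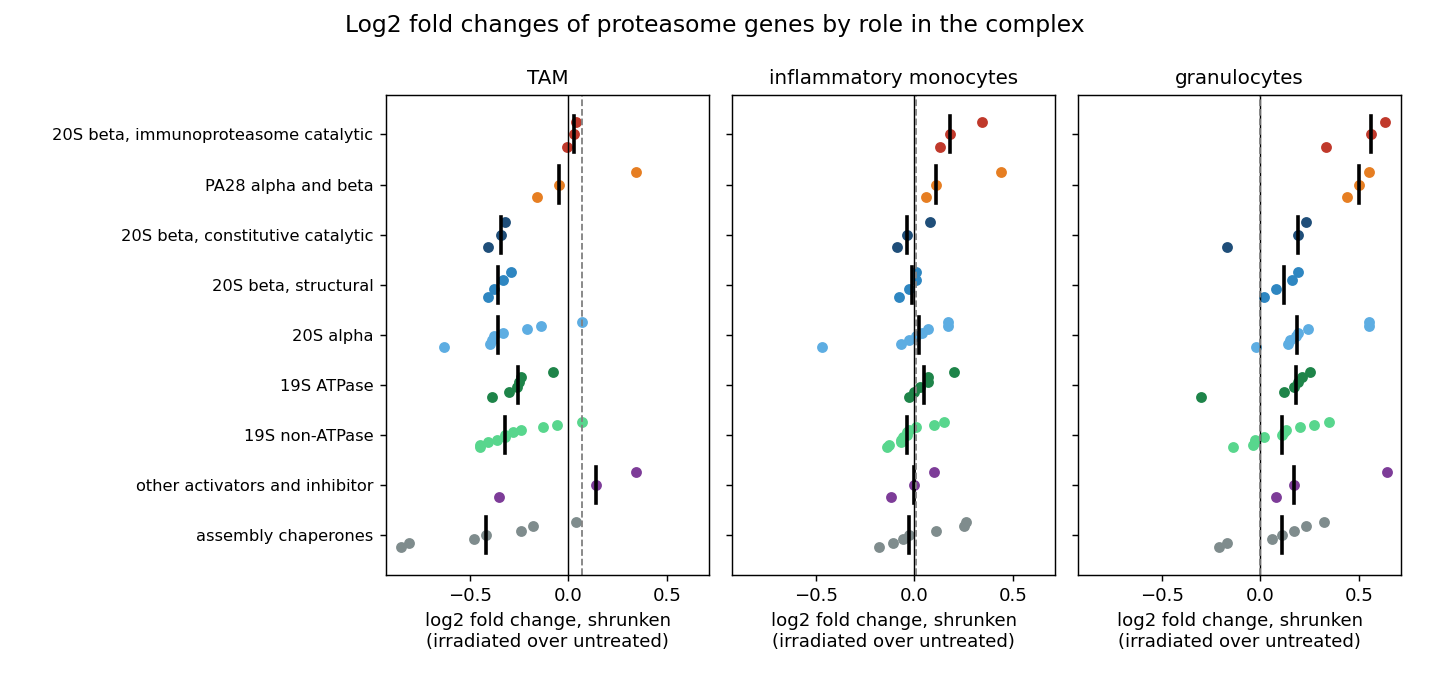
Shrunken log2 fold changes (horizontal axis) of the 48 genes by role (vertical axis) in the 3 comparisons; each point is 1 gene, the black bar is the median of a role and the dashed line the median of all genes whose mean count was 200 or more. In TAM the medians of the constitutive catalytic, structural beta, alpha and 19S genes lie between -0.36 and -0.26 while that of the immunoproteasome catalytic genes is 0.03; in granulocytes the immunoproteasome catalytic median is 0.56.

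The calls in TAM depended on the scaling of the statistics. Wald statistics divided by their robust SD over genes with a mean count of 50 or more (2.72) left 0 of the 48 genes. That SD includes the spread of genes that changed, and 38.7% of genes with a mean count of 200 or more were called. The setting is therefore strict. How many of all genes passed under it was not counted, so whether the 0 is particular to the proteasome genes is not known. When p-values were adjusted over every gene that has one, 19 genes fell and 0 rose, and the lost calls were Psme4 (adjusted p = 0.067), Psmg3, Psma1, Psma5, Psmc5, Psmd2, Psmd3 and Psmd13.

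In inflammatory monocytes no proteasome gene passed the authors' DESeq2 Wald test, and 2 of the 48 had an unadjusted p under 0.05. Over all 14506 genes tested, 5.9% were called (4.13% rose and 1.77% fell), and among those with a mean count of at least 200, 7.52% were called (4.9% rose and 2.62% fell). The median log2 fold change of the 48 was 0.01, against 0.02 for all genes tested, with 26 positive and 22 negative Wald statistics. The 2 with an unadjusted p under 0.05 were the 19S base chaperone genes Psmd9 (log2 fold change 0.26, p = 0.024, adjusted p = 0.17) and Psmd10 (0.25, p = 0.027, adjusted p = 0.18) per the authors' deposited table.

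The 5 immunoproteasome genes all had positive statistics in inflammatory monocytes without passing. The authors' deposited table has log2 fold changes of 0.34 for Psmb9 (adjusted p = 0.42), 0.18 for Psmb8 (adjusted p = 0.71) and 0.13 for Psmb10 (adjusted p = 0.8). Psme1 had 0.11 (adjusted p = 0.78) and Psme2 0.06 (adjusted p = 0.91) per the authors' deposited table. For the replaced subunits the authors' deposited table gives -0.09 for Psmb5, 0.08 for Psmb6 and -0.04 for Psmb7, with adjusted p between 0.71 and 0.86. Log2 fold changes of all other constitutive genes lay between -0.47 (Psma8) and 0.44 (Psme2b) per the authors' deposited table. Psme2b is a near copy of Psme2, so reads may be split between the pair and its values are uncertain.

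In granulocytes 5 proteasome genes rose and none fell. Over all 15679 genes tested, 7.32% rose and 9.9% fell, and among those with a mean count of at least 200, 10.6% rose and 11.5% fell. The 10.4% of proteasome genes that rose was thus close to the share among well-measured genes. The Wald statistic was positive for 39 of the 48, and the median log2 fold change was 0.17, against -0.03 for all genes tested.

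**Figure D3:**
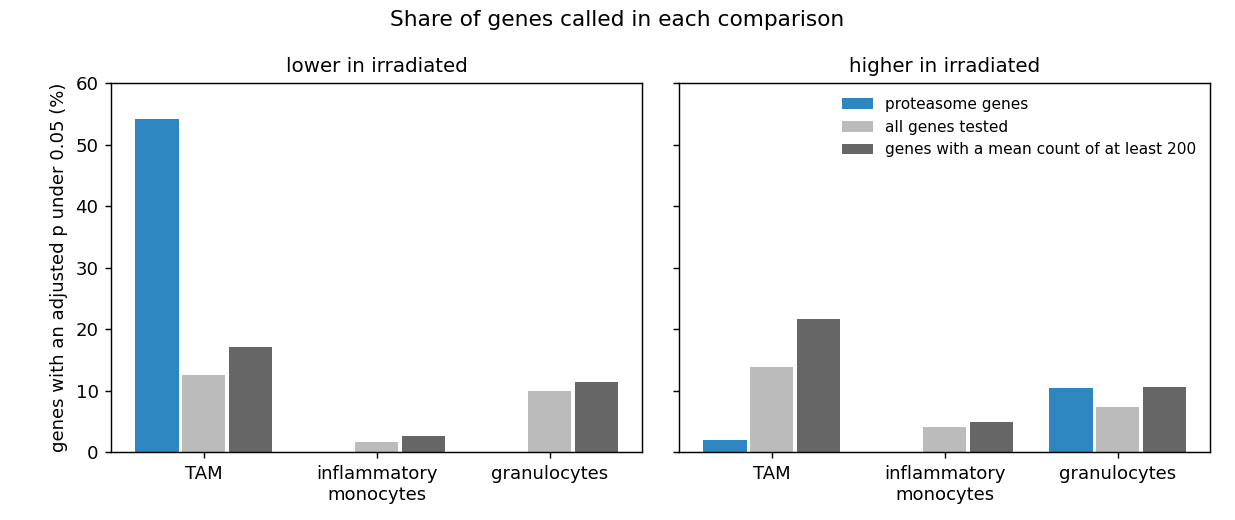
Share of genes with an adjusted p under 0.05 (vertical axis, percent) that were lower (left) or higher (right) in irradiated tumours, for the 48 proteasome genes, all genes tested and genes whose mean count was 200 or more. In TAM 54.2% of the proteasome genes were lower against 12.5% and 17.1%, and in granulocytes 10.4% were higher against 7.32% and 10.6%.

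Of the 5 genes that rose in granulocytes, 2 belong to the immunoproteasome. Psmb10 rose with a log2 fold change of 0.63 per the authors' deposited table (Wald statistic 2.96, adjusted p = 0.024). Psme2, of the PA28 activator, rose with 0.50 (Wald statistic 2.77, adjusted p = 0.037) per the authors' deposited table. The other 3 immunoproteasome genes were positive and did not pass: Psmb8 had 0.56 (adjusted p = 0.071), Psme1 0.44 (adjusted p = 0.051) and Psmb9 0.33 (adjusted p = 0.36) per the authors' deposited table. The 5 genes had a median log2 fold change of 0.50, against 0.16 for the 43 constitutive genes, a difference of 0.34 that was not tested. Of the constitutive genes, 38 lay below every immunoproteasome gene.

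The 3 constitutive genes that rose in granulocytes had different roles. They were 6.98% of the 43, against 7.32% of all genes tested and 10.6% of those with a mean count of at least 200. Psmf1, the PI31 gene, had the smallest adjusted p of the 48 in this subset, with a log2 fold change of 0.64 per the authors' deposited table (Wald statistic 3.57, adjusted p = 0.0051). Psma6, an alpha-ring gene, rose with 0.55 (Wald statistic 3.49, adjusted p = 0.0063), and the ATPase gene Psmc4 with 0.25 (Wald statistic 2.67, adjusted p = 0.046) per the authors' deposited table. The constitutive catalytic genes did not pass, with log2 fold changes of 0.19 for Psmb5, 0.23 for Psmb6 and -0.17 for Psmb7 per the authors' deposited table. Psmd9 (0.32, adjusted p = 0.052) and Psmd8 (0.35, adjusted p = 0.053) lay just outside the threshold per the authors' deposited table. The lowest value was -0.30 for the ATPase gene Psmc6 (adjusted p = 0.1, the authors' deposited table). With p-values adjusted over every gene that has one, Psmf1, Psma6 and Psmb10 (adjusted p = 0.049) passed and Psme2 (adjusted p = 0.073) and Psmc4 (adjusted p = 0.091) did not. With statistics divided by their robust SD (2.09), which again includes the spread of genes that changed, 0 of the 48 genes passed.

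**Figure D4:**
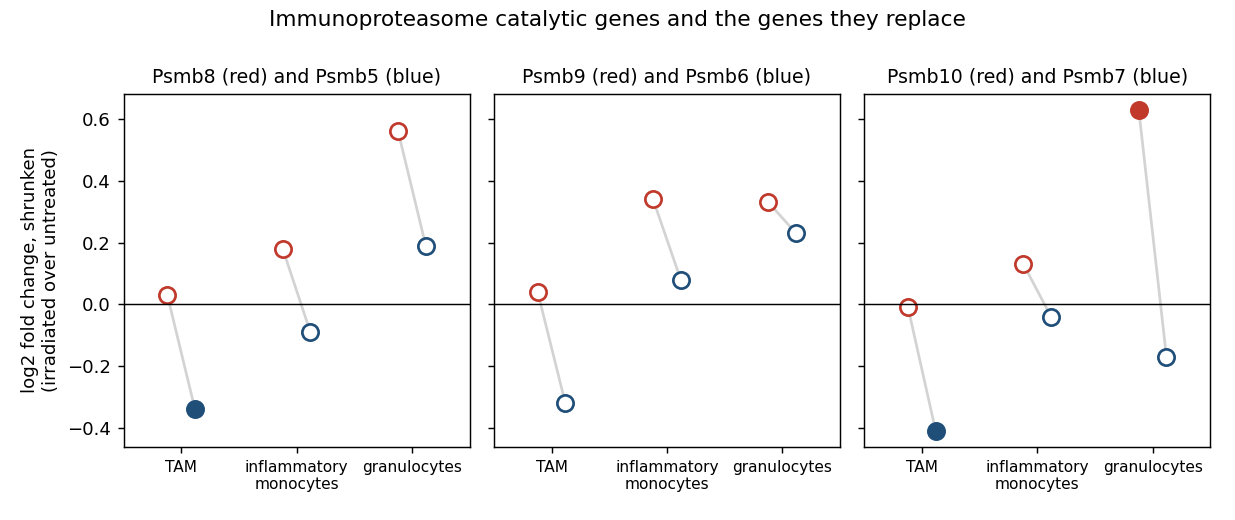
Log2 fold changes, read as shrunken (vertical axis), of each interferon-induced catalytic gene and the constitutive gene it replaces in the 3 comparisons. Interferon-induced genes are the red, left points and constitutive genes the blue, right points. Filled points have an adjusted p under 0.05. The red point is above the blue one in all 9 cases, by 0.10 to 0.80.

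Within each catalytic pair, the interferon-induced gene had the higher log2 fold change in all 3 comparisons. For Psmb8 minus Psmb5 the difference of log2 fold changes was 0.38 for TAM, 0.28 for inflammatory monocytes and 0.37 for granulocytes. For Psmb9 minus Psmb6 it was 0.36, 0.26 and 0.10 in the same order. For Psmb10 minus Psmb7 it was 0.40, 0.17 and 0.80. The widest, in granulocytes, joined a gene that rose with one that had a negative fold. The differences have no standard error here and were not tested, and genes of 1 table share their libraries.

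Between subsets, 32 of the 48 genes had a negative Wald statistic in TAM and a positive one in granulocytes. This count largely follows from the 40 that were negative in TAM and the 39 that were positive in granulocytes. The share of all genes with this pair of signs was not counted. Opposite directions were tested from the larger p-value of the pair where the signs differ, with Benjamini-Hochberg adjustment over all genes tested in both tables. No proteasome gene passed this test in any of the 3 pairs of subsets (0.0957% of all genes did between TAM and granulocytes, 0% in the other pairs). Between TAM and granulocytes, 4 genes had an unadjusted p under 0.05: Psmc4 (0.0076, adjusted p = 0.65), Psmd13 (0.017), Psmc3 (0.025) and Psma1 (0.036). Psmc4 was the 1 gene called in both tables, with log2 fold changes of -0.30 in TAM and 0.25 in granulocytes per the authors' deposited tables. Other differences between subsets were not tested. Every granulocyte and inflammatory monocyte library has a TAM library of the same tumour number, and the test of opposite directions takes no account of this. In all, 17 of the 48 genes were called in no comparison. The share of all genes called in no comparison, or in both TAM and granulocytes, was not counted.

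Genes that act around the proteasome moved in both directions in TAM. Their counts stand beside the shares of all genes tested given above, which in TAM were 13.9% higher and 12.5% lower, or 21.6% and 17.1% at a mean count of 200 or more. In granulocytes these shares were 7.32% and 9.9%, or 10.6% and 11.5%. Of 8 regulators of proteasome genes, 7 rose in TAM, none in inflammatory monocytes and none in granulocytes. Stat3 fell in granulocytes (log2 fold change -0.46, adjusted p = 0.013 per the authors' deposited table). As 1 of 8 genes (12.5%), that was close to the share of well-measured genes that fell. In TAM the authors' deposited table has log2 fold changes of 1.05 for Nlrc5, the transactivator of MHC class I genes (adjusted p = 6.0e-04), and 0.59 for Irf1, a factor of interferon signalling (adjusted p = 0.022). Stat3, another signalling factor, rose with 0.50 (adjusted p = 0.0016) in TAM per the authors' deposited table. Ddi2, the protease that releases the factor NFE2L1 from its membrane anchor, had 0.43 (adjusted p = 0.0085) per the authors' deposited table. Ngly1, which removes sugars from that factor, had 0.41 and Nfe2l2, the NRF2 gene, 0.45, both rising per the authors' deposited table. Nfe2l1, which encodes NFE2L1 itself, had 0.19 and did not pass (adjusted p = 0.33, the authors' deposited table). NFE2L1 is a different protein from nuclear respiratory factor 1, whose motif was searched above.

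Of 10 genes of peptide transport and loading, 5 rose and 2 fell in TAM (50% and 20%), 3 rose in inflammatory monocytes and 3 rose in granulocytes (30% each). The 20% that fell in TAM was close to the 17.1% of genes with a mean count of 200 or more. Among such genes, 4.9% rose in inflammatory monocytes and 10.6% in granulocytes. The class I heavy chain genes H2-D1 (log2 fold change 0.90, adjusted p = 1.4e-09) and H2-K1 (0.89, adjusted p = 1.6e-05) had the smallest p among those that rose in TAM per the authors' deposited table. Tap2, a subunit of the peptide transporter encoded beside Psmb8 and Psmb9, had a log2 fold change of 0.59 in TAM (adjusted p = 0.033) per the authors' deposited table. Tap1, the other subunit, had 0.51 and did not pass (adjusted p = 0.082, the authors' deposited table). B2m, the light chain of MHC class I, rose in all 3 comparisons, with 0.61 for TAM, 0.47 for inflammatory monocytes and 0.47 for granulocytes by the authors' deposited tables. The loading chaperone genes Calr (-0.51) and Pdia3 (-0.75) fell in TAM per the authors' deposited table. Tapbp, the tapasin gene, rose in TAM (0.59) and in granulocytes (0.63) per the authors' deposited tables.

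Among 6 ubiquitin and E1 enzyme genes, 2 rose and 1 fell in TAM (33.3% and 16.7%), and the share that fell was close to the 17.1% among well-measured genes. Ubb, a polyubiquitin gene, rose (log2 fold change 0.49, adjusted p = 9.6e-04), and Rps27a, which encodes ubiquitin fused to a ribosomal protein, fell (-0.68, adjusted p = 1.6e-04), both per the authors' deposited table. Of 11 proteasome-bound deubiquitinases and shuttles, 5 fell and 2 rose in TAM (45.5% and 18.2%), and 3 fell in granulocytes (27.3%). The share that rose in TAM lay between the 13.9% of all genes and the 21.6% of well-measured genes. Ddi2, counted among the regulators above, is also in this list and was 1 of the 2 that rose. Usp14 and Uchl5, the deubiquitinases of the 19S particle, fell in TAM (-0.55 and -0.44) and in granulocytes (-0.32 and -0.35) per the authors' deposited tables. Zfand5, which stimulates the 26S proteasome, rose in TAM with 0.62 (adjusted p = 2.1e-04) per the authors' deposited table. No gene of these last lists passed in inflammatory monocytes.

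Other genes moved beside these results, and their counts stand beside the shares of all genes tested. Those shares were 13.9% higher and 12.5% lower in TAM, 4.13% and 1.77% in inflammatory monocytes, and 7.32% and 9.9% in granulocytes. At a mean count of 200 or more they were 21.6% and 17.1%, 4.9% and 2.62%, and 10.6% and 11.5% in the same order. Of 10 proliferation genes, 10 fell in TAM (median log2 fold change -2.36), 3 fell in inflammatory monocytes (-0.98) and 9 fell in granulocytes (-1.84). In TAM, 4 of 6 classical monocyte markers, 8 of 10 neutrophil markers, 2 of 3 tested eosinophil markers, 1 of 5 epithelial and tumour markers and 1 of 8 macrophage markers rose. Dendritic cell markers fell in TAM in 4 of 7 cases, T and NK cell markers in 2 of 7 and fibroblast markers in 1 of 4. In inflammatory monocytes, 7 of 8 macrophage markers, 6 of 10 neutrophil markers, 1 of 3 tested eosinophil markers and 1 of 3 B cell markers rose. In granulocytes, 3 of 8 macrophage, 3 of 6 classical monocyte, 1 of 10 neutrophil and 1 of 3 tested eosinophil markers rose, and 1 of 7 T and NK cell and 1 of 4 fibroblast markers fell. The 12.5% of macrophage and the 20% of epithelial and tumour markers that rose in TAM were close to the shares of all genes. In granulocytes so were the 10% of neutrophil markers that rose and the 14.3% of T and NK cell markers that fell. In TAM the 10 neutrophil markers had positive Wald statistics but a median log2 fold change of -0.21, so their fold is uncertain. Epx, a defining eosinophil gene, was near 0 (mean count 0.351), and Ifng, the interferon gamma gene, had a mean count of 4.75 over all libraries. The part of these genes in the proteasome results was not tested. Of the 48 genes, 9 share exonic sequence with a gene on the other strand in GENCODE M21, Psmb8 with Gm20496, Psmb9 with Tap1, Psme1 with Emc9 and Psmb7 with Nek6 among them, and without strand their reads cannot be told apart.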

How the data were processed

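The authors' deposited tables of 3 comparisons were analysed. The submitters' processing notes name fastp 0.20.1, STAR 2.7.6a, R 4.0.2 and DESeq2 1.28.1, and the build mm39 (GRCm39). Per the labels' protocols, libraries were made from small amounts of cDNA with Nextera XT, which keeps no strand. How reads were counted, and on which annotation, is not given in the sources used here.

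The authors averaged normalised counts over libraries into 1 signal per gene, which is the same in all 3 deposited tables. The authors' log2 fold changes were read as shrunken, because elsewhere in the tables small folds stand beside large Wald statistics. Some folds there also have the opposite sign, which shrinkage towards 0 alone does not give, so how the folds were made is uncertain. The Wald statistic is a score the authors deposited. The deposited p-values follow from it as two-sided normal p within 0.0021 log10 units.

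Genes with a deposited adjusted p under 0.05 were counted, and all 48 genes had one in all 3 tables. The p-values rest on the authors' estimate of the spread between libraries. Because the mean count is the same in all 3 tables, that estimate may pool the 3 subsets, whose libraries share tumour numbers. This was not tested. The members and gene lists were chosen with earlier results of these data known. The rule for names took the immunoproteasome genes and the catalytic genes they replace in full, the other members called in any comparison, with values for up to 4 per role of smallest p, and up to 4 called genes per related list. Results of some genes are left out here. Other genes (Irf1, Nfe2l2, Nfe2l1, Tap2, Epx and Ifng among them) were picked after their values were seen. The code for calls and opposite directions was tested on simulated data. Python 3.11.15, pandas 2.3.3, numpy 2.4.6, scipy 1.17.1 and matplotlib 3.10.9 were used. RefSeq windows and GENCODE M21 exon lengths are of the earlier build GRCm38 and were matched by symbol. Alternatives were other thresholds, count minimums, adjustments, a robust SD for Wald statistics and other definitions of the constitutive genes.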

Additional observations from a re-analysis of the deposited data

How the results depend on the processing

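In TAM, 27 genes were called; 2 had a log2 fold change of 0.5 or more in size and 0 passed with Wald statistics divided by their robust SD, while the other settings left 18 to 30. In granulocytes the 5 calls became 2 at an adjusted p under 0.01, 11 under 0.1, 3 with adjustment over every gene, 3 with the fold minimum and 0 with the robust SD. The cause was not tested. In inflammatory monocytes the count was 0 under every setting tried, and no gene passed for opposite directions. The difference of medians, immunoproteasome minus constitutive, stayed positive under every setting tried. On the Wald scale it was 2.56 for TAM, 0.70 for inflammatory monocytes and 1.34 for granulocytes, and with catalytic pairs only it was 0.22 in inflammatory monocytes, against 0.13. Leaving out Psme2b was chosen after seeing the data and kept all counts. Of single-gene results, 10 lost their call with adjustment over every gene and 32 with the robust SD. The robust SD includes the spread of genes that changed, and the share of all genes passing under it was not counted. No paired analysis was possible because irradiated and untreated libraries carry different tumour numbers, and because a comparison between subsets that share tumours needs single-library values, which were not analysed here. For the same reason no replicate could be left out. Depth is unknown.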

Other observations

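Of 8 genes of the p97 complex, the ATPase machine that extracts ubiquitin-tagged proteins from membranes and complexes, 2 fell in TAM, none passed in inflammatory monocytes and 1 fell in granulocytes. These shares of 25% and 12.5% stand beside 12.5% of all genes tested that fell in TAM (17.1% of those with a mean count of 200 or more) and 9.9% in granulocytes (11.5%), so in granulocytes the list was close to the background. Vcp, which encodes p97 itself, had a log2 fold change of -0.45 in TAM (adjusted p = 0.0036) in the authors' deposited table. Nsfl1c, an adaptor of p97, had -0.27 in TAM (adjusted p = 0.029), and Ubxn4, which recruits p97 to the endoplasmic reticulum, had -0.55 in granulocytes (adjusted p = 0.012), in the authors' deposited tables.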
